A study of Homo sapiens with 24 samples.

Results

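Acute myeloid leukemia (AML) is a cancer of blood precursor cells, and the comparison described here asks where 2 AML cell lines responded differently to the same drug. The cell lines were MV4-11, whose KMT2A fusion and mutated FLT3 receptor tyrosine kinase drive its growth, and KG-1a, an immature CD34+ subline of KG-1. Both carry the genotype label WT, so no engineered change separated the groups. The drug, 8-amino-adenosine (8AA), is an adenosine analogue with an amino group on the purine ring, and the series also holds its analogue 8-chloro-adenosine (8CA). The 4 groups were MV4-11 left untreated, MV4-11 given 1 µM 8AA for 24 h, KG-1a left untreated and KG-1a given 1 µM 8AA for 24 h, with 2 RNA sequencing libraries in each. These are 8 of the 24 libraries of the series, the other groups being the 8 h cultures and the 8CA cultures of the same lines. The hours of the untreated libraries were given by their titles only. For each gene the log2 change in KG-1a was taken from the log2 change in MV4-11. A positive line difference means that the gene ended relatively higher in MV4-11, each line set against its own untreated level. The comparison covered the 11485 genes that passed the filter on low counts in both lines, out of 23354 in the table. Neither the labels nor the methods say whether the 2 libraries of a group came from separate cultures. The spread between libraries that the p-values measure may therefore be technical. It was estimated over all 24 libraries, not over these 8 alone.

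As background, adenosine analogues of this kind enter cells through nucleoside transporters and are phosphorylated by adenosine kinase. Their triphosphate forms compete with ATP and interfere with RNA synthesis, so transcripts that are made and degraded quickly are among the first to move. MAT2A, the enzyme that makes the methyl donor S-adenosylmethionine, is the gene that the study follows. Dividing cells hold a set of mitotic transcripts that is switched on late in the cell cycle by factors that bind CCAAT boxes and cell cycle genes homology region (CHR) elements. Growing cells hold a second set, the ribosome biogenesis factors and aminoacyl-tRNA synthetases that supply protein synthesis, many of which are known MYC targets.

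The 8 libraries held between 18633963 and 22888069 counts assigned to genes. Replicate libraries differed by more than sampling noise in every group, most of all the KG-1a 8AA pair, whose chi-square per degree of freedom was 12.3 against 1.43 to 5.20 in the other pairs. The p-values use a spread per gene shared by all groups, so the wider spread of this pair was not modelled on its own. Most line markers differed between the lines. The summed level of FLT3, MEIS1, HOXA9, HOXA10 and MEF2C was 803 to 928 CPM (counts scaled to a common library size) in the MV4-11 libraries and 193 to 228 in the KG-1a libraries. FLT3 made up most of the MV4-11 sum, at 498 to 600 CPM. HOXA9 went the other way, at 7.48 to 8.46 CPM in MV4-11 and 22.3 to 26.8 in KG-1a. Untreated HOXA10 did too, at 65.0 to 73.7 CPM in MV4-11 and 83.5 to 83.8 in KG-1a. MEF2C was expressed in both lines. Of the myeloid markers, CD33, SPI1 and MPO were higher in MV4-11, PTPRC and CD34 were higher in KG-1a, and KIT was low in both. CD34, CD7 and ERG summed to 521 to 795 CPM in KG-1a and to 0.232 to 0.386 in MV4-11. The KG-1a libraries also held T-cell receptor complex transcripts, CD3D and CD3E among them, that summed to 275 to 335 CPM, while this sum was at most 0.0495 in MV4-11. Their part in the results was not tested. All 5 erythroid markers were at 0. In bulk RNA, fewer cells of a kind and less RNA per cell cannot be told apart.

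The lines differed in their 24 h 8AA response at 3083 of the 11485 genes, which is 26.8% of those tested (edgeR quasi-likelihood F test, Benjamini-Hochberg adjusted p below 0.05). The MV4-11 change lay above the KG-1a change at 1913 genes (16.7%) and below it at 1170 genes (10.2%). Most differences were small. The median absolute line difference of the called genes was 0.43 on the log2 scale, beside a median standard error of 0.11 over all genes, and 242 genes (2.11%) were called with a difference of at least 1, which MV4-11 led at 114 and KG-1a at 128. When each of the 8 libraries was left out in turn, 1536 genes (13.4%) kept their call in every fit. The balance of directions depended on the scaling. With DESeq2 size factors the MV4-11 change lay above at 1708 genes and the KG-1a change at 1340. With library size alone these counts were 1479 and 1728, and with the upper quartile 1498 and 1609. The balance also turned when a KG-1a library of the contrast was left out. The median line difference over all genes was 0.036 in the main fit and -0.042 to -0.025 in those fits. In those fits the reference library of the scaling (TMM) changed as well. That other reference was also tried with all libraries kept, an alternative chosen after seeing the data. It gave 1388 genes with the MV4-11 change above and 1776 with the KG-1a change above. Its median was -0.036. Without an MV4-11 library of the contrast the reference stayed the same, and the median was 0.032 to 0.043.

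KG-1a had more genes that responded. In KG-1a 2818 genes rose (24.5%) and 3223 fell (28.1%) after 24 h of 8AA, whereas in MV4-11 1750 rose (15.2%) and 1644 fell (14.3%). The MV4-11 count rested on its libraries: leaving out 8AA replicate A gave 2069 called genes, and leaving out untreated replicate B gave 2060. Over all genes the median absolute log2 change in KG-1a was 0.24, against 0.15 in MV4-11. Of the 3083 genes with a called line difference, 1720 (55.8%) had a called response in KG-1a alone, 1068 of them falling there and 652 rising. A further 396 (12.8%) had a called response in MV4-11 alone. At 656 genes (21.3%) both lines moved the same way by unequal amounts, and at 613 of these KG-1a moved further. The remaining genes were 234 (7.59%) that moved in opposite directions and 77 (2.50%) that were called in neither line. Over all 11485 genes the absolute change was larger in KG-1a at 66.4%, and over the 3083 at 80.1%.

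**Figure D1:**
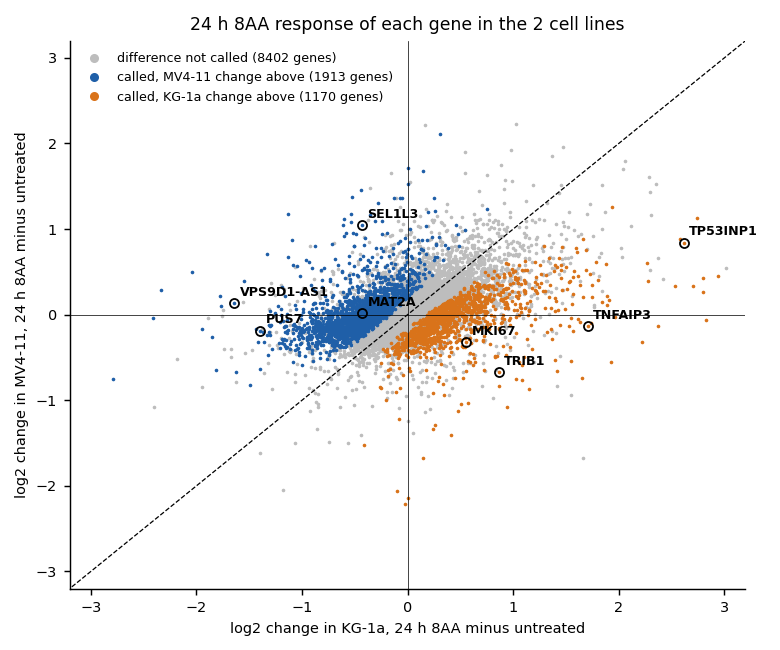
Each point is 1 of the genes expressed in both lines, placed by its log2 change after 24 h of 8AA in KG-1a (horizontal) and in MV4-11 (vertical), with the dashed line where the changes are equal; 5 genes lie outside the axes. Blue points are the 1913 genes whose MV4-11 change was called above, orange points the 1170 called below and grey points the 8402 not called; rings mark 8 genes named in the text.

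Among calls that held with any 1 library left out, at genes that averaged 2 log2 CPM or more in both lines, the lowest line difference was that of TNFAIP3, which encodes A20, an inhibitor of NF-κB signalling and itself an NF-κB target (chromosome 6, 138188325 to 138204451 in the table's coordinates, plus strand). It stood at 27.1 and 27.0 CPM in the untreated MV4-11 libraries and 23.5 and 25.6 with 8AA. In KG-1a it stood at 25.3 and 27.1 CPM untreated and 83.9 and 86.9 with 8AA, so only the treated KG-1a libraries stood apart. Its line difference was -1.84 ± 0.11 (SE; edgeR adjusted p = 7.98e-11), and at 8 h it was already -1.12 (adjusted p = 1.76e-06). The 250 bases before its transcription start are shown because they hold 2 matches to the NF-κB consensus, 67 and 55 bases before the start, in capitals below (GRCh38.p14, chr6:137867009-137867258, plus strand, RefSeq).

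TNFAIP3: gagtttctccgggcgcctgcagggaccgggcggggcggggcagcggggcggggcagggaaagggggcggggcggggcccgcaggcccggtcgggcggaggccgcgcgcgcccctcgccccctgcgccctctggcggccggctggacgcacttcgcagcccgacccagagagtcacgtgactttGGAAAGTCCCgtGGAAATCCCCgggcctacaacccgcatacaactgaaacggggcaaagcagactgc

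The genes next to it kept their call with any 1 library left out. The limit of 2 log2 CPM was averaged over untreated and treated libraries, so the treated KG-1a libraries could carry it. Untreated KG-1a lay below this limit at several of these genes, among them TP53INP1, PIK3IP1, LINC01004 and PAN3-AS1. Their rises in KG-1a therefore started from low levels, and their place among the lowest line differences rested on their treated level. TP53INP1, a p53-induced autophagy and cell death factor, stood at 11.2 and 13.0 CPM in untreated MV4-11 and 22.7 and 20.7 with 8AA. In KG-1a the same gene stood at 1.74 and 1.62 CPM untreated and 9.64 and 11.1 with 8AA, a rise of 2.62 on the log2 scale against 0.84 in MV4-11 (edgeR adjusted p of the difference = 1.88e-05). Thus it rose in both lines, and more in KG-1a. PIK3IP1, an inhibitor of phosphatidylinositol 3-kinase, did likewise, with 3.92 and 3.55 CPM in untreated KG-1a and 18.1 and 18.0 with 8AA, and a line difference of -1.67. BTG2, an antiproliferative gene, stood at 11.4 and 12.8 CPM in untreated KG-1a and 33.4 and 30.0 with 8AA, while the MV4-11 libraries overlapped at 18.7 and 19.4 and 18.0 and 21.2 CPM. AHNAK, a large scaffold protein, rose by 1.80 in KG-1a and 0.40 in MV4-11, from very unlike starting levels of 5.71 and 6.37 CPM and 1835 and 1753 CPM. The non-coding or uncharacterised transcripts LOC646214, LINC01004, PAN3-AS1 and TSPOAP1-AS1 had line differences between -1.84 and -1.33, and FAM212B and GAS2L1 completed the 12 at -1.34 and -1.32. The sources used here do not say whether counting used strand, and without it reads of an antisense transcript and of its partner gene cannot be told apart.

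At the other end, VPS9D1-AS1, a long non-coding RNA antisense to VPS9D1 (chromosome 16, 89778264 to 89784573, plus strand), had the highest line difference under the same limits, 1.78 ± 0.11 (SE; edgeR adjusted p = 3.41e-10). Its MV4-11 libraries overlapped, with 39.2 and 35.3 CPM untreated and 43.3 and 38.3 with 8AA, whereas in KG-1a it fell from 26.6 and 27.3 to 8.92 and 8.27 CPM. PUS7, a pseudouridine synthase that modifies RNA, fell in both lines, with log2 changes of -0.19 and -1.40, and stood at 55.7 and 52.6 CPM in untreated KG-1a and 19.0 and 22.2 with 8AA. CD3EAP, a subunit of RNA polymerase I despite its name, fell by 1.32 in KG-1a and had a line difference of 1.20. SIK1, a salt-inducible kinase, had 8.37 and 7.72 CPM in untreated KG-1a and 3.52 and 3.36 with 8AA, with MV4-11 libraries between 13.4 and 15.0 CPM. FAM86EP, PLBD2, ZNF469 and FAM86C1 followed the same course, with MV4-11 log2 changes of 0.045, 0.021, 0.071 and -0.0063 and KG-1a changes of -1.30, -1.26, -1.20 and -1.20. FAM86EP and FAM86C1 belong to a family of near-identical copies, so reads may be split between them. AFDN, ITGA3, PEG3 and SEL1L3 differed from these in that they also rose in MV4-11. For ITGA3 and PEG3 the untreated MV4-11 libraries lay below the level limit, which the treated ones carried.

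**Figure D2:**
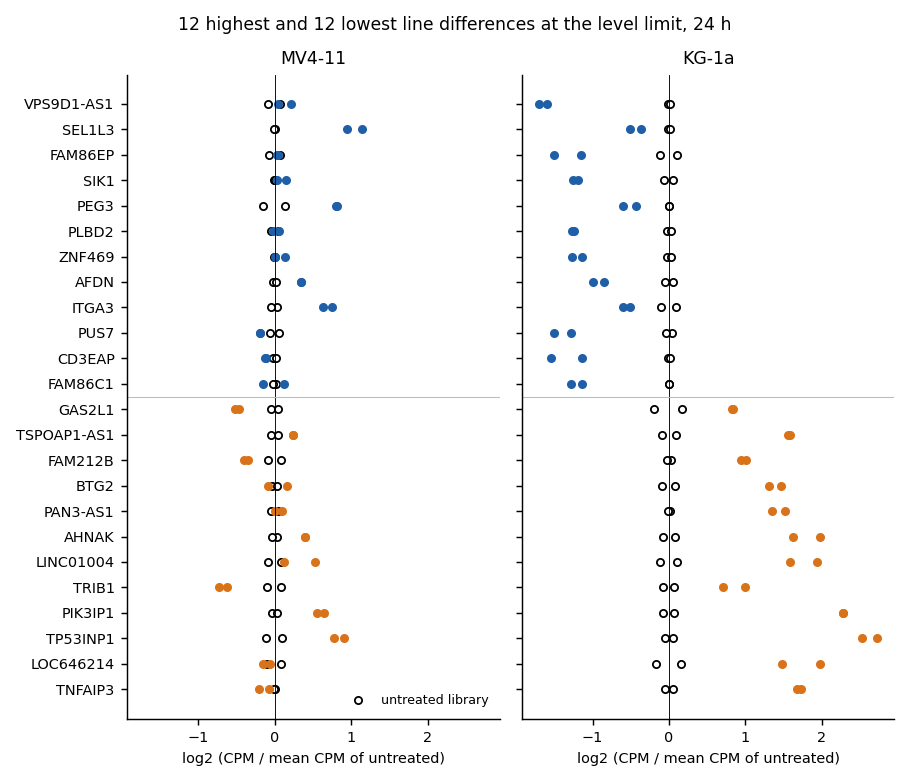
For the 12 highest and the 12 lowest line differences among calls that held with any 1 library left out, at genes that averaged 2 log2 CPM or more in both lines, each point is 1 library at 24 h, as log2 of its CPM over the mean CPM of the untreated libraries of the same line (open circles untreated, filled circles 8AA; blue for a positive and orange for a negative line difference). The filled points lie near 0 in MV4-11 for most genes and away from 0 in KG-1a for all 24.

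Across the 24 gene lists, the sharpest split lay between mitosis genes, which ended relatively higher in KG-1a, and ribosome biogenesis factors, which ended relatively higher in MV4-11. Of the 30 mitosis genes, 28 had a called line difference, all with the KG-1a change above, where 10.2% of all genes did so. Their median line difference was -0.51, beside 0.036 over all genes. Of the 35 ribosome biogenesis factors, 33 were called, all with the MV4-11 change above, where 16.7% of all genes did so, and their median was 0.61. Over all alternatives of scaling, filter, libraries and test, other than the threshold on size, between 26 and 30 mitosis genes and between 33 and 34 ribosome biogenesis factors were called in these directions.

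**Figure D3:**
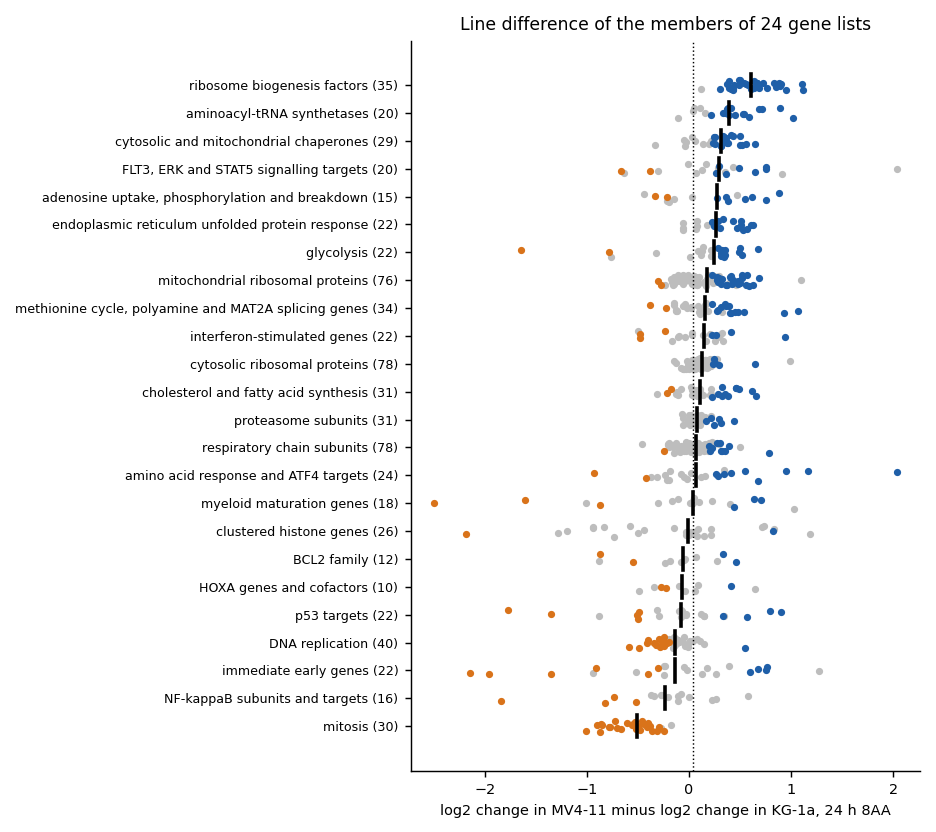
Each point is 1 gene of a list (number of expressed genes in brackets), placed by its line difference (log2 change in MV4-11 minus log2 change in KG-1a after 24 h of 8AA), in blue or orange where called and grey where not; thick bars are list medians and the dotted line is the median of all genes. Lists run from ribosome biogenesis factors at 0.61 to mitosis at -0.51.

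The mitosis genes fell in MV4-11 and mostly rose in KG-1a. In MV4-11 28 of 30 fell and 0 rose, against 14.3% of all genes that fell. In KG-1a 18 rose and 3 fell, against 24.5% and 28.1% of all genes, and 16 of the 30 moved in opposite directions in the lines, which 2.04% of all genes did. MKI67, which encodes the proliferation marker Ki-67 (chromosome 10, 129894925 to 129924468, minus strand), stood at 1122 and 1051 CPM in untreated MV4-11 and 835 and 910.0 with 8AA. In KG-1a it stood at 1165 and 1182 CPM untreated and 1679 and 1773 with 8AA. The untreated and treated libraries did not overlap in either line and moved apart in opposite directions, with a line difference of -0.87 ± 0.069 (SE; edgeR adjusted p = 3.96e-09). CENPF, a kinetochore protein, behaved the same way, with 662 and 630.1 CPM in untreated MV4-11, 483 and 511 with 8AA, 469.7 and 465 in untreated KG-1a and 639.6 and 703 with 8AA. NUSAP1, a spindle microtubule protein, fell by 0.28 in MV4-11 and rose by 0.58 in KG-1a. CDC25C, the phosphatase that releases the mitotic kinase CDK1, had the widest line difference of the list at -1.01 ± 0.16 (SE), made of a called rise of 0.71 in KG-1a and a change of -0.30 in MV4-11 that did not pass the test (edgeR adjusted p = 0.0514). HMMR, a spindle-associated hyaluronan receptor, stood at 119.8 and 129 CPM in untreated MV4-11, 90.9 and 93.0 with 8AA, 38.6 and 38.0 in untreated KG-1a and 47.2 and 54.9 with 8AA.

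The promoters of MKI67 and HMMR are shown because both hold the CHR and CCAAT letters of the late cell cycle program, and both genes were picked after their values were seen. CDC25C, CENPF and NUSAP1 had wider line differences than HMMR. They were passed over because no CHR match, or no promoter in the RefSeq table, was found for them. Each run is the 250 bases before the transcription start in RefSeq's GRCh38.p14, 5′ to 3′ on the strand of the gene, at chr10:128126424-128126673 (minus) for MKI67 and chr5:163460382-163460631 (plus) for HMMR. Capitals mark matches, on either strand, to CCAAT and to the CHR letters TTTGAA or TTCGAA, and where these overlap the capitals run together. MKI67 had 2 CHR matches, 47 and 29 bases before the start, and HMMR had 2, 28 and 22 bases before the start.

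MKI67: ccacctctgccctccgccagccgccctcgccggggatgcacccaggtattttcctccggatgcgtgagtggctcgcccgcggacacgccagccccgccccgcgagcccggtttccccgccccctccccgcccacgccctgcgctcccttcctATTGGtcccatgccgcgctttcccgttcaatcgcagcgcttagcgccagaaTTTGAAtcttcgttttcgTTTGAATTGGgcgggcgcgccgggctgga
HMMR: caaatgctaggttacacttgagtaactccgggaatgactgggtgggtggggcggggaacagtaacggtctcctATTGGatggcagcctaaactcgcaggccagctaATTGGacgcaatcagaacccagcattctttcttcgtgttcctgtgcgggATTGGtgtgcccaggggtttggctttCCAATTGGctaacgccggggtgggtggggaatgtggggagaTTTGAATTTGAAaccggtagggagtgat

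Among the 24 mitosis genes with a promoter in the RefSeq table, 20 (83.3%) held a CCAAT match, beside 35.8% of the 9268 promoters of genes expressed in both lines. A CHR match lay in 12 (50.0%), beside 9.82%. Of the 14 promoters of NF-κB subunits and targets, 5 (35.7%) held a match to the NF-κB consensus, searched on both strands, beside 5.72%. Of the 4 genes of that list with a called line difference, only TNFAIP3 had a match found. The share of the list therefore does not describe its called genes. The E-box letters CACGTG, which MYC can bind, lay in 2 of 28 ribosome biogenesis promoters (7.14%), beside 9.47%. A match describes letters in this window and is no evidence of binding.

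The mitosis genes leaned slightly the other way at 8 h, with list medians of -0.063 in KG-1a and 0.081 in MV4-11. The MV4-11 change then lay above at 7 of the 30 mitosis genes and below at 0, beside 9.02% and 4.38% of all genes. The difference between the 24 h and the 8 h line difference was called below 0 at 29 of the 30 genes, where 4.81% of all genes were. After 8 h of 8AA the summed level of the list lay at 106% and 104% of the untreated mean in MV4-11 and at 96.7% and 95.9% in KG-1a. At 24 h the gap was wider, with 77.2% and 80.2% in the MV4-11 libraries and 119% and 124% in the KG-1a libraries. With 8CA the list median at 24 h was -0.35 in MV4-11 and -0.031 in KG-1a, values that share their untreated libraries with those of 8AA. The drugs were compared without the untreated libraries, and the 8AA line difference lay below the 8CA line difference at 19 of the 30 mitosis genes, where 8.59% of all genes did so.

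DNA replication genes did not follow the mitosis genes. Of 40 expressed, 38 fell in MV4-11 and 24 in KG-1a, beside 14.3% and 28.1% of all genes, and 0 and 2 rose. A line difference with KG-1a above was called at 14, beside 10.2% of all genes, and one with MV4-11 above at 1. Their median line difference was -0.13. The count with KG-1a above depended on the libraries and on the scaling, with 5 in the fit of the 8 libraries alone and 21 with library size alone. CDT1, a licensing factor for replication origins, fell by 0.26 in MV4-11 and rose by 0.33 in KG-1a. RFC5, a subunit of the clamp loader, fell by 0.34 and rose by 0.14. CCNE1, the S-phase cyclin E, was the gene with MV4-11 above, having fallen in both lines, with log2 changes of -0.47 and -1.02. At 8 h this list already differed, with 23 of 40 genes called with KG-1a above, where 4.38% of all genes were. By then 20 of the 40 had fallen in MV4-11 and 13 had risen in KG-1a, beside 13.6% and 15.7% of all genes. Clustered histone genes, whose transcripts mostly lack a poly(A) tail, had 1 called gene in each direction among 26. The shares over all genes were 16.7% with MV4-11 above and 10.2% with KG-1a above. The histone gene with KG-1a above lost its call in 6 of the 8 fits without 1 library.

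Ribosome biogenesis factors fell in both lines, and further in KG-1a. In MV4-11 18 of 35 fell and in KG-1a 34, beside 14.3% and 28.1% of all genes. The list medians were -0.18 and -0.80, and 0 rose in either line. RRP12, a factor in ribosomal subunit maturation and export (chromosome 10, 99116458 to 99161127, minus strand), stood at 108 and 112 CPM in untreated MV4-11 and 95.5 and 96.0 with 8AA, and at 64.1 and 67.0 in untreated KG-1a and 28.2 and 24.4 with 8AA. Both lines fell without overlap, and the fitted level with 8AA was 0.870 of untreated in MV4-11 and 0.402 in KG-1a. Its line difference was 1.11 ± 0.083 (SE; edgeR adjusted p = 1.87e-09). MYBBP1A, a nucleolar regulator of ribosomal RNA synthesis, fell by 1.18 in KG-1a, and its MV4-11 change of -0.074 did not pass the test (edgeR adjusted p = 0.197). RRP9, a component of the U3 small nucleolar ribonucleoprotein, and BYSL, which acts in small subunit assembly, had line differences of 0.95 and 0.91. At 8 h the list had fallen more evenly, at 31 genes in MV4-11 and 33 in KG-1a, beside 13.6% and 20.1% of all genes. The 8 h medians were -0.34 and -0.51. A line difference with MV4-11 above was then called at 9 genes, where 9.02% of all genes had one. The widening from 8 h to 24 h was called at 23 of the 35 genes, where 5.85% of all genes were. With 8CA the 24 h medians were -0.14 and -0.35, and the line difference with 8AA lay above that with 8CA at 30 of the 35, where 13.4% of all genes were.

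Aminoacyl-tRNA synthetases, which load amino acids onto tRNAs, ended relatively higher in MV4-11 with 8AA. Of 20, 15 had a line difference with MV4-11 above and 0 with KG-1a above, beside 16.7% and 10.2% of all genes, with a median of 0.39. VARS, the valine enzyme, stood at 308 and 306 CPM in untreated MV4-11, 275 and 279 with 8AA, 128 and 137 in untreated KG-1a and 60.5 and 57.0 with 8AA. IARS, the isoleucine enzyme, stood at 563 and 546 CPM in untreated MV4-11, 445 and 460.5 with 8AA, 580.3 and 573 in untreated KG-1a and 258 and 251 with 8AA. In both genes the treated libraries lay below the untreated ones in each line, and the gap was wider in KG-1a. FARSB and MARS, the phenylalanine and methionine enzymes, had line differences of 0.72 and 0.69. Summed over the list, the treated libraries lay at 84.9% and 88.3% of untreated in MV4-11 and at 66.9% and 61.8% in KG-1a, while the 8CA libraries of KG-1a lay at 146% and 143%. The list's median line difference with 8CA was -0.33, and the line difference with 8AA lay above that with 8CA at 16 of the 20 genes, where 13.4% of all genes did so.

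**Figure D4:**
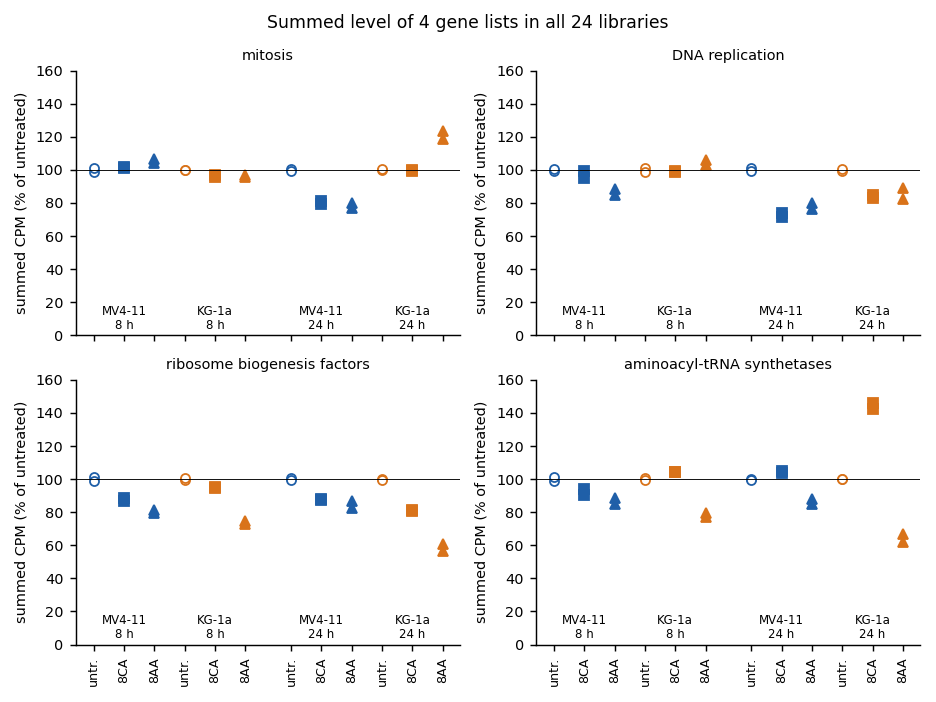
Summed CPM of 4 gene lists in each of the 24 libraries, as a percent of the mean of the untreated libraries of the same line and time (open circles untreated, squares 8CA, triangles 8AA; MV4-11 blue, KG-1a orange; 2 libraries per group). At 24 h the 8AA triangles of mitosis genes lie at 77.2% and 80.2% in MV4-11 and at 119% and 124% in KG-1a, and those of ribosome biogenesis factors at 82.7% and 86.8% and at 60.9% and 56.4%.

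Protein folding genes also fell in both lines and further in KG-1a at 24 h. Of 29 cytosolic and mitochondrial chaperones 26 fell in MV4-11 and 27 in KG-1a, beside 14.3% and 28.1% of all genes. The list's median line difference was 0.31. A line difference with MV4-11 above was called at 20 of the 29, where 16.7% of all genes had one. That count was 13 without KG-1a untreated replicate B and 13 without KG-1a 8AA replicate B. HSPD1, the mitochondrial chaperonin HSP60, stood at 1478 and 1483 CPM in untreated MV4-11, 1111 and 1151 with 8AA, 1251 and 1212 in untreated KG-1a and 620.3 and 581 with 8AA. HSP90AB1, the constitutive HSP90, and HSPA9, the mitochondrial HSP70, had line differences of 0.50 and 0.52. At 8 h the chaperones had leaned the other way, with 9 line differences called with KG-1a above and 1 with MV4-11 above, beside 4.38% and 9.02% of all genes, and the change with time was called upward at 20 of the 29, beside 5.85%. In the unfolded protein response of the endoplasmic reticulum, 15 of 22 genes had MV4-11 above and 0 had KG-1a above, and the count was 9 without KG-1a untreated replicate A and 9 without KG-1a 8AA replicate B. Its regulator XBP1 fell in both lines, with log2 changes of -0.18 in MV4-11 and -0.81 in KG-1a, as did HSPA5, the chaperone BiP, with -0.37 and -0.93. Proteasome subunits fell alike in count, 29 of 31 in MV4-11 and 28 in KG-1a, beside 14.3% and 28.1% of all genes. Of the 31, 6 (beside 16.7% of all genes) had a called line difference, with MV4-11 above in each. That count was 3 in 6 of the 8 fits without 1 library, and 5 or more only without MV4-11 8AA replicate A or KG-1a 8AA replicate A.

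Targets of ATF4, the transcription factor of the amino acid response, had medians of opposite sign with the drugs. After 24 h of 8AA the list median was -0.44 in MV4-11 and -0.60 in KG-1a. Of 24 genes, 17 and 20 fell, beside 14.3% and 28.1% of all genes. After 8CA the KG-1a median was 1.74 and the MV4-11 median 0.65. The line difference of 8AA minus that of 8CA was called above 0 at 20 of the 24, where 13.4% of all genes were, and called below 0 at 0 of them. CHAC1, which degrades glutathione, stood at 2.90 and 3.29 CPM in untreated MV4-11, 1.75 and 1.93 with 8AA, 3.48 and 3.50 in untreated KG-1a and 0.440 and 0.567 with 8AA, a low level in every library. Its line difference was 2.04 ± 0.33 (SE) with 8AA and -2.33 with 8CA, and the difference between them was 4.37 ± 0.29 (SE; edgeR adjusted p = 1.26e-10). SLC7A5, a large neutral amino acid transporter, fell in both lines with 8AA, with log2 changes of -0.67 in MV4-11 and -1.62 in KG-1a, as did ALDH1L2, a mitochondrial folate enzyme, with -0.65 and -1.81. DDIT3, which encodes the stress factor CHOP, was 1 of 2 list members with KG-1a above, having risen by 0.89 in KG-1a, where the libraries stood at 1.94 and 2.40 CPM untreated and 4.64 and 3.31 with 8AA. Over all genes, 16.7% had a line difference with MV4-11 above with 8AA and 10.2% one with KG-1a above. Within 8AA alone 9 ATF4 targets had a line difference with MV4-11 above and 2 with KG-1a above (4 without MV4-11 8AA replicate B and 5 without KG-1a 8AA replicate B), and the median of the list, 0.072, lay close to that of all genes.

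MAT2A (chromosome 2, 85766101 to 85772403, plus strand) fell after 24 h of 8AA in KG-1a and had no called change in MV4-11. It stood at 685 and 655 CPM in untreated MV4-11 and 678 and 682 with 8AA, which overlapped. In KG-1a it stood at 523 and 519 CPM untreated and 391 and 382 with 8AA, a change of -0.43 on the log2 scale (edgeR adjusted p = 4.22e-09). The line difference of 0.45 ± 0.056 (SE) was called (edgeR adjusted p = 2.09e-06) and kept its call with any 1 library left out, the largest adjusted p being 1.98e-04. At 8 h its line difference was 0.042 (edgeR adjusted p = 0.748), and the difference between the times, 0.41, was called (edgeR adjusted p = 0.00148). METTL16, the RNA methyltransferase that acts on MAT2A transcripts, had log2 changes of -0.15 in MV4-11 and -0.31 in KG-1a. Its line difference of 0.16 (95% interval -0.0047 to 0.32) did not pass the test (edgeR adjusted p = 0.164). The paper reports that the drugs left METTL16 RNA unchanged, at a later time and by qRT-PCR. Of the m6A writer subunits, METTL14 had a called line difference of -0.38 (edgeR adjusted p = 0.00399) and METTL3 one of 0.12 that was not called (edgeR adjusted p = 0.276).

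Around MAT2A, in the methionine cycle, polyamine and splicing list, 14 of 34 genes had MV4-11 above and 2 had KG-1a above, and the first count was 9 without KG-1a untreated replicate B and 9 without KG-1a 8AA replicate B. The shares over all genes were 16.7% with MV4-11 above and 10.2% with KG-1a above. The widest differences lay in polyamine synthesis. SRM, spermidine synthase, stood at 205 and 200.3 CPM in untreated MV4-11, 173 and 169 with 8AA, 174 and 181 in untreated KG-1a and 78.4 and 64.7 with 8AA. ODC1, ornithine decarboxylase and the first enzyme of the pathway, stood at 315 and 317 CPM in untreated MV4-11, 265 and 281 with 8AA, 479 and 479 in untreated KG-1a and 231 and 202 with 8AA. Both fell in each line, with line differences of 1.06 and 0.93. The protein arginine methyltransferases PRMT1 and PRMT5, which use S-adenosylmethionine, followed at 0.54 and 0.48.

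Genes that handle adenosine and its analogues differed in part. Over all genes, 16.7% had MV4-11 above and 10.2% had KG-1a above. Of 15 expressed, 7 had MV4-11 above and 2 had KG-1a above, the first count being 4 without KG-1a untreated replicate A. SLC29A1, the equilibrative nucleoside transporter ENT1, stood at 119 and 116 CPM in untreated MV4-11, 93.6 and 99.7 with 8AA, 109.8 and 112 in untreated KG-1a and 58.2 and 50.0 with 8AA. It fell in both lines, with log2 changes of -0.28 and -1.03 (edgeR adjusted p of the difference = 2.62e-06). AMPD2, an AMP deaminase, fell by 0.49 in KG-1a and had an MV4-11 change of 0.14 that did not pass the test (edgeR adjusted p = 0.108).

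Signalling genes moved in smaller numbers and in both directions. Their counts stand beside 16.7% of all genes with MV4-11 above and 10.2% with KG-1a above. In the list of FLT3, ERK and STAT5 targets, 7 of 20 had MV4-11 above and 2 had KG-1a above, with 4 in the first class when KG-1a untreated replicate A, untreated replicate B or 8AA replicate B was left out. MYC, a transcription factor of growth genes, stood at 608 and 598 CPM in untreated MV4-11, 628 and 671 with 8AA, 423 and 436 in untreated KG-1a and 295 and 255 with 8AA. It fell in KG-1a alone by the test, and its line difference was 0.75 ± 0.079 (SE; edgeR adjusted p = 2.80e-07). DUSP6, the ERK phosphatase, had a line difference of 1.66 at 8 h and 0.64 at 24 h. Of 16 NF-κB subunits and targets, 4 had KG-1a above and 0 had MV4-11 above, and 8 were called when KG-1a 8AA replicate B was left out. NFKB2 rose by 0.94 in KG-1a, where its libraries stood at 21.6 and 23.7 CPM untreated and 45.8 and 41.3 with 8AA. Among 22 immediate early genes 4 had MV4-11 above and 6 had KG-1a above, the latter being 2 without MV4-11 8AA replicate A and 3 without MV4-11 untreated replicate B. BTG2, described above, and KLF6 kept their call with any 1 library left out, KLF6 with 28.0 and 26.2 CPM in untreated KG-1a, 44.8 and 51.1 with 8AA and a line difference of -0.91.

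Cell death, maturation and metabolic lists gave mixed counts, beside 16.7% of all genes with MV4-11 above and 10.2% with KG-1a above. Of 22 p53 targets, 4 had MV4-11 above and 5 had KG-1a above, the latter being 8 without KG-1a 8AA replicate B. In the BCL2 family, 2 of 12 lay each way, with 5 having KG-1a above when KG-1a 8AA replicate A was left out, and BMF, a pro-apoptotic BH3-only member, rose in both lines, from 34.4 and 37.3 to 57.9 and 61.3 CPM in MV4-11 and from 32.1 and 33.5 to 103 and 95.8 CPM in KG-1a. The myeloid maturation list had 3 of 18 each way, the HOXA genes and cofactors 1 of 10 with MV4-11 above and 2 with KG-1a above, and the interferon-stimulated genes 4 and 3 of 22, beside 16.7% and 10.2% of all genes. Without MV4-11 8AA replicate A the HOXA list had 0 genes with KG-1a above, without MV4-11 8AA replicate B the interferon list had 0 with MV4-11 above, and without KG-1a untreated replicate B the myeloid list had 1 with MV4-11 above. MPO, myeloperoxidase, the maturation gene with the widest difference, was at 0.145 and 0.626 CPM in untreated KG-1a and 2.16 and 1.75 with 8AA. In glycolysis 11 of 22 had MV4-11 above and 2 had KG-1a above, in cholesterol and fatty acid synthesis 11 and 2 of 31, and the first counts were 6 and 7 without KG-1a untreated replicate B or without KG-1a 8AA replicate B. HK2, hexokinase 2, fell in both lines, with log2 changes of -0.17 in MV4-11 and -0.85 in KG-1a, whereas ALDOC, aldolase C, fell by 0.28 in MV4-11 and rose by 1.36 in KG-1a. Mitochondrial ribosomal proteins had 25 and 2 of 76, with 15 in the first class when KG-1a untreated replicate A was left out and 11 when either KG-1a replicate B was. Respiratory chain subunits had 10 and 1 of 78, a first share below the 16.7% of all genes, and leaving out KG-1a 8AA replicate B gave 2 and 11, leaving out KG-1a untreated replicate A 2 and 2. Cytosolic ribosomal proteins had 5 and 0 of 78, and the first count lay between 1 and 25 over the alternatives, with 25 when KG-1a 8AA replicate A was left out.

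Of the 234 genes that moved in opposite directions, 118 rose in MV4-11 and fell in KG-1a, and 116 did the reverse. Leaving out 8AA replicate A of MV4-11 gave 151 such genes, and leaving out its untreated replicate B gave 149. The changes were moderate: 0 of the genes reached a log2 change of 1 in each line by edgeR's adjusted p, 1 did at an unadjusted p below 0.05 and 0 did with DESeq2. SEL1L3, a membrane protein (chromosome 4, 25749049 to 25864610, minus strand), stood at 7.19 and 7.14 CPM in untreated MV4-11 and 15.8 and 13.8 with 8AA. In KG-1a it stood far higher, at 179 and 182 CPM untreated and 139 and 127 with 8AA, so the lines moved towards each other. ITGA3, an integrin subunit, and TLN2, the adaptor talin 2 that links integrins to actin, followed the same pattern, with 3.18 and 3.02 CPM rising to 5.20 and 4.80 and 61.1 and 69.8 falling to 46.0 and 43.1 for ITGA3. PTP4A3, a phosphatase known as PRL-3, started from the reverse levels, with 50.5 and 56.6 CPM in untreated MV4-11 and 5.66 and 5.58 in untreated KG-1a, so its lines moved apart. PEG3 and MROH6 completed this side, with changes of 0.81 and 0.46 in MV4-11 and -0.51 and -0.48 in KG-1a. On the other side, TRIB1, a pseudokinase that directs the degradation of C/EBP factors, stood at 11.9 and 10.5 CPM in untreated MV4-11, 7.26 and 6.73 with 8AA, 3.77 and 4.17 in untreated KG-1a and 7.88 and 6.48 with 8AA. HMMR and PSRC1 are spindle proteins, and GAS2L1 binds actin and microtubules. The KG-1a libraries of OLMALINC overlapped, at 6.73 and 8.82 CPM untreated and 11.6 and 8.70 with 8AA, and NRGN rose there by 0.47.

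**Figure D5:**
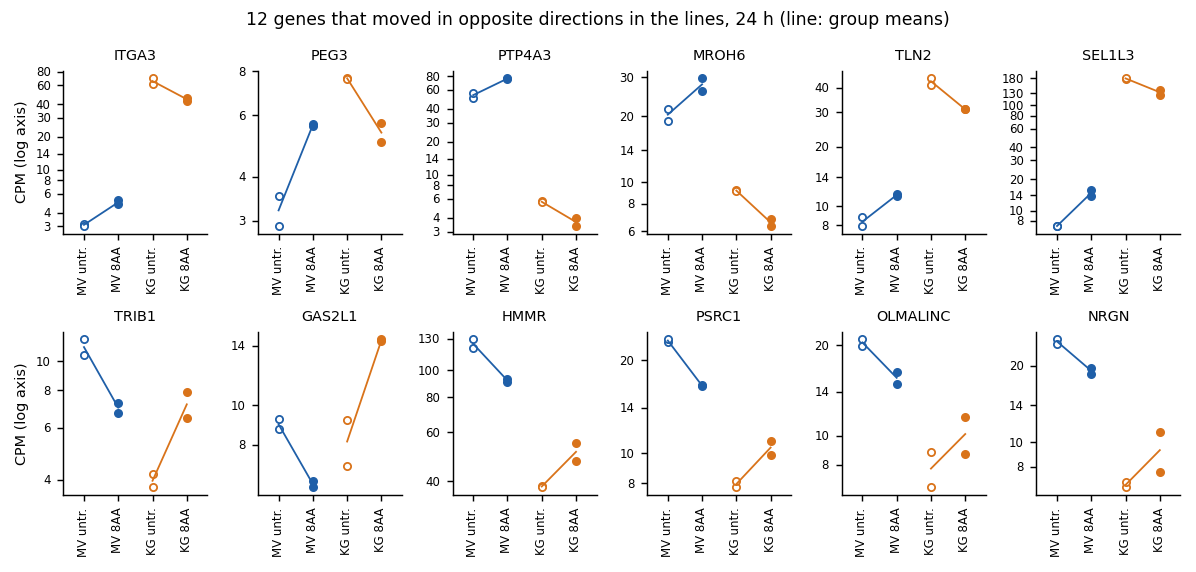
Level in CPM (log axis, scaled per panel) of the 12 named genes that moved in opposite directions at 24 h, with 1 point per library, open for untreated and filled for 8AA, and lines between group means (MV4-11 blue, KG-1a orange). In the upper row MV4-11 rose and KG-1a fell, in the lower row the reverse, and the KG-1a points of OLMALINC overlap.

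The 8 h libraries, which do not enter the 24 h contrast, held fewer called line differences. At 8 h 1893 genes rose (16.5%) and 1565 fell (13.6%) in MV4-11, and 1803 rose (15.7%) and 2306 fell (20.1%) in KG-1a. The lines differed at 1539 genes (13.4%), 1036 with MV4-11 above (9.02%) and 503 with KG-1a above (4.38%). Of the 3083 genes called at 24 h, 73.5% had an 8 h line difference of the same sign, beside 58.3% of the genes not called. At 8 h 681 of the 3083 (22.1%) were called in the same direction and 72 (2.34%) in the opposite one. Over all genes these shares were 10.6% and 2.75%. The times themselves differed at 1224 genes (10.7%), the 24 h line difference lying above at 672 (5.85%) and below at 552 (4.81%). SEL1L3 was already at 1.50 at 8 h, with a change over time of -0.013 (edgeR adjusted p = 1.00). SIK1 and LOC646214 were likewise close to their 24 h values at 8 h, with 1.16 and -1.82. ZNF469 shrank with time, from 2.53 at 8 h to 1.27 at 24 h (edgeR adjusted p of the change = 0.00151), and VPS9D1-AS1 widened, from 0.20 to 1.78 (edgeR adjusted p = 9.94e-07).

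The amino and the chloro analogue were both given at 1 µM for 24 h, so their line differences could be compared at matched dose and time. They differed at 2522 genes (22.0%), the 8AA line difference lying above that of 8CA at 1535 (13.4%) and below it at 987 (8.59%). Where the gap was not called, this does not show that the compounds acted alike. PEG3 had line differences of 1.31 with 8AA and -0.76 with 8CA, a gap of 2.07 ± 0.22 (SE; edgeR adjusted p = 3.10e-07), and TP53INP1 had -1.77 and 1.09, a gap of -2.87 ± 0.24 (SE; edgeR adjusted p = 5.27e-09). For MAT2A the gap was 0.26 ± 0.056 (SE; edgeR adjusted p = 0.00171). For SIK1 it was 0.47 with an unadjusted 95% interval of 0.13 to 0.81, and it did not pass the test (edgeR adjusted p = 0.0513).

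The starting gap between the lines was set beside the direction of their line difference. In the untreated 8 h libraries, which do not enter the contrast, 2567 of the 3083 called genes differed between the lines by the test, and at 1252 of these (48.8%) the line difference lay in the direction that brings the lines closer. Over all genes with such a gap it was 4612 of 9241 (49.9%).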

How the data were processed

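RNA was sequenced from 24 libraries of 2 cell lines. The authors deposited raw counts per gene, made, per the labels' processing notes, with Trimmomatic, STAR 2.6.0, HTSeq 0.11.1 and edgeR, with the builds hg19 and hg38 named and no role given for either. The table's coordinates run past the last chromosome 1 gene of GRCh38 (249213345 against 248937043), so promoters, which are on GRCh38.p14, were matched by symbol only. All 24 libraries were fitted with 1 coefficient per group in edgeR 4.0.16 (R 4.3.3) after TMM scaling and filterByExpr (minimum count 10), which left 14055 genes, and p-values were adjusted over all of them (Benjamini-Hochberg). CPM values are TMM-scaled, and ± gives the standard error of a log2 value. Genes counted as expressed in both lines passed the filter in each line's libraries, which 1 group could carry. Named genes were the 12 with the highest and the 12 with the lowest line difference that kept their call with any 1 library left out and averaged 2 log2 CPM or more in both lines, the 6 with the strongest opposite changes each way, up to 4 called genes with the widest difference from each of 24 gene lists, and MAT2A, METTL16, METTL3 and METTL14. The level of 2 log2 CPM was averaged over the untreated and treated libraries of a line, so 1 group could carry it too. The genes, lists and tests were chosen with earlier results of these data known. Lists are described by counts and medians. Counts of calls were recomputed under other scalings, filters, sets of libraries and letter blocks, with DESeq2 1.42.0 and with a log2 threshold of 1, and the fit was tested on simulated counts.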

Additional observations from a re-analysis of the deposited data

Results flagged for a closer look

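Differences between the lines under the same treatment, tested by the interaction term, met the condition for a closer look. They numbered 3083 genes at 24 h, of which 234 moved in opposite directions, while 1224 line differences changed between 8 h and 24 h and 2522 differed between the drugs. Over all genes, 26.8% had a called line difference. By list, these numbered 33 of 35 in ribosome biogenesis, 28 of 30 in mitosis, 20 of 29 in chaperones and 15 of 20 in the aminoacyl-tRNA synthetases. In the unfolded protein response they were 15 of 22, in glycolysis 13 of 22 and in adenosine handling 9 of 15. With 1 library left out, those with MV4-11 above were as few as 13 in chaperones, 9 in the unfolded protein response, 6 in glycolysis and 4 in adenosine handling.

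Among single genes with the MV4-11 change above, the line differences were 1.78 for VPS9D1-AS1, 1.48 for SEL1L3, 1.35 for FAM86EP, 1.32 for SIK1, 1.31 for PEG3, 1.28 for PLBD2, 1.27 for ZNF469, 1.26 for AFDN, 1.24 for ITGA3, 1.21 for PUS7, 1.20 for CD3EAP and 1.20 for FAM86C1, with 1.13 for PTP4A3, 0.94 for MROH6 and 0.92 for TLN2 added as genes of opposite direction. With the KG-1a change above they were -1.84 for TNFAIP3, -1.84 for LOC646214, -1.77 for TP53INP1, -1.67 for PIK3IP1, -1.53 for TRIB1, -1.41 for LINC01004, -1.40 for AHNAK, -1.37 for PAN3-AS1, -1.35 for BTG2, -1.34 for FAM212B, -1.33 for TSPOAP1-AS1 and -1.32 for GAS2L1, with -0.85 for HMMR, -0.88 for PSRC1, -0.79 for OLMALINC and -0.86 for NRGN added in the same way. Groups of 2 libraries are too small for a test of single outlying libraries.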

How the results depend on the processing

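With a log2 threshold of 1 the called line differences fell to 242, 114 with MV4-11 above and 128 with KG-1a above, the own responses to 121 in MV4-11 and 434 in KG-1a, the genes of opposite direction to 0, the 8 h line differences to 144, the changes with time to 115 and the differences between drugs to 224. The count with KG-1a above was 1854 with no filter on low counts and 1776 with another TMM reference library, an alternative chosen after seeing the data, which gave 1388 with MV4-11 above (43.9% of calls, against 62.1% in the fit as reported). TMM took a KG-1a 8CA library as reference, and an MV4-11 8AA library whenever a KG-1a library of the contrast was left out. Counts from those fits, for the lists too, therefore carry both changes. The fit of the 8 libraries alone called 2290 line differences, 1504 with MV4-11 above and 786 with KG-1a above. It found 141 genes of opposite direction. With 1 of the 8 libraries left out, called line differences ranged from 2452 to 3400, those with MV4-11 above from 1103 to 1728, those with KG-1a above from 911 to 1844, MV4-11 responses from 2060 to 3949, KG-1a responses from 5041 to 6020, genes of opposite direction from 149 to 304, 8 h line differences from 1485 to 2038, changes with time from 901 to 1744 and differences between drugs from 1904 to 3010.

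Of the 3083 calls, 2878 remained with DESeq2 size factors, 2649 with library size alone, 2668 with the upper quartile and 2565 with the DESeq2 Wald test. Over 124 named gene values, 2487 recomputed values stayed called or stayed not called, 147 kept direction and lost the call, and 0 called values reversed. Direction was not compared where neither value was called. METTL3, which was not called, ranged from -0.035 to 0.14, so its direction did not hold. The letters A and B did not pair the libraries, with correlations of deviations of 0.011 between the MV4-11 groups and -0.11 between the KG-1a groups, and a range of -0.30 to 0.21 over 66 pairs of groups. A replicate block gave 2994 calls, and a replicate block within each line and time 3535. Crossing the letters of the KG-1a 8AA libraries in that block, chosen after seeing the data, gave 3525. The causes were not tested. With 2 libraries per group, small line differences were at the limit of what these data can show, and 49.8% of calls held in every fit without 1 library.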
